A study of Mus musculus with 4 samples.

Results

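Heat shock proteins and chaperonins are the gene families that fold new proteins, refold damaged ones and take protein complexes apart. The set held every protein-coding gene of the deposited table whose symbol begins with Hspa, Hspb, Hspd, Hspe, Hsph, Hsp90, Dnaja, Dnajb or Dnajc, the chaperonin subunits Cct2 to Cct8 with their relatives, and Tcp1. Hspa5, the HSP70 of the endoplasmic reticulum, was left out. The rule gave 82 genes of 53715 in the table, of which 21981 are protein-coding. Gene expression was compared between 2 knockout (KO) and 2 wild-type (WT) RNA sequencing libraries of CD4+CD8+ double-positive thymocytes, sorted from the thymus of C57BL/6 mice of 6 to 8 weeks. KO mice were labelled LCKCre/+ Srsf1fl/fl, a genotype in which a Cre recombinase driven by the promoter of Lck, active in thymocytes, cuts floxed Srsf1 alleles. For WT mice the labels give the genotype as WT and no allele. Srsf1 encodes an RNA-binding protein of the SR family that acts in splice site choice. The labels do not state whether the replicates of a group are different animals, and the p-values therefore speak of the spread among these libraries, which may be technical.

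HSP70 proteins bind exposed hydrophobic stretches of a client and let go of it in a cycle of ATP hydrolysis and nucleotide exchange. J-domain proteins (DNAJ) bring clients to HSP70 and start hydrolysis, whereas HSP110 proteins and other exchange factors reset the cycle. HSP90 takes over clients such as kinases and steroid receptors with the help of a set of co-chaperones, and the ring-shaped chaperonins enclose clients such as actin and tubulin (TRiC/CCT, cytosol) or mitochondrial proteins (HSP60 with HSP10). The stress-inducible members are controlled by the transcription factor HSF1, which binds repeats of GAA and its complement TTC, and in thymocytes the Lck kinase that carries the pre-T-cell receptor signal is itself an HSP90 client.

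The heat shock elements of the members are shown first, since HSF1 is known to bind such repeats, and both called and uncalled members carry them. The 250 bases before the transcription start were read from the RefSeq promoter table (GRCm38.p6), in which 67 of the 82 members were found. Members without an entry, among them Hspa8, Hspa9, Hsp90aa1 and Hsp90ab1, were not searched. A heat shock element of 3 units, spelled GAANNTTCNNGAA and searched on both strands, stood in 3 of the 67 members found (4.48%). It stood in 0.514% of all 27025 genes in the promoter table and in 0.462% of the 15149 protein-coding genes found there. The 3 members were Dnajb6, Hspd1 and Hspe1. Its shorter parts, GAANNTTC or TTCNNGAA, were found in 17 of 67 members (25.4%), against 14.5% of all genes and 13.2% of protein-coding genes. Every 3-unit element contains both. In the windows that follow, read 5′ to 3′ on the gene's own strand, the element is in capitals.
Dnajb6 (chr5:29735846-29735870, plus strand): ctccgaGAATCTTCCGGAAcgctag
Hspd1 (chr1:55088053-55088082, minus strand): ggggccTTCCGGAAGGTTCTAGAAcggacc
Dnajb4 (chr3:152193846-152193889, minus strand): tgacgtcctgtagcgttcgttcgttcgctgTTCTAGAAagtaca
Dnaja4 (chr9:54699463-54699520, plus strand): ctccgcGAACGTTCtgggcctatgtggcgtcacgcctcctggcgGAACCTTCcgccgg
Hspa1b (chr17:34959305-34959372, minus strand): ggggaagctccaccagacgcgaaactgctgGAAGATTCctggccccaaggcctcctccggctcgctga
The Dnajb6, Hspd1 and Dnaja4 windows lie before a RefSeq start but inside an untranslated exon of a GENCODE transcript of the same gene. For Dnajb6 and Hspd1 these transcripts are Dnajb6-201 and Hspd1-202. The Hspd1 element is 18 bases long (chr1:55088059-55088076) and contains the 3-unit motif in both orientations. It lies between the starts of Hspd1 and Hspe1, which are transcribed away from each other, so both genes carry the same bases. The 250 bases before Hspa1a and before Hspa1b were equal at 247 positions (98.8%), and both hold the same short element. A match is a description of these letters only, and 10 of the 21 known HSF1 targets with a promoter entry hold the short element and 2 the 3-unit element.

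Srsf1, the deleted gene, had 8.70 and 8.53 RPKM (read counts scaled by gene length and library total) in the KO libraries and 23.5 and 21.5 RPKM in the WT libraries. The difference was -1.39 on the log2 scale (SE 0.09, adjusted p = 2.91e-06 with edgeR's quasi-likelihood test with Benjamini-Hochberg adjustment over all genes tested, the test behind each adjusted p given here). KO libraries thus still held Srsf1 reads, and the counts per gene do not show which exons these reads cover. In bulk samples cells that kept the gene and less RNA per cell cannot be told apart. Total counts were 37033180 and 36389555 in the KO libraries and 35862730 and 36515358 in the WT libraries. All 10 marker genes of the sorted cells were detected. Their summed level was 3624 and 3520 RPKM in KO against 2612 and 2499 RPKM in WT libraries. Of the 10, 6 were called higher, against 6.63% of all genes tested and 15.2% of those with a mean of at least 10 RPKM. Rag1, Dntt and Cd8b1 had the smallest adjusted p among them, with log2 fold changes of 0.88, 0.73 and 0.54. B cell markers summed to 12.8 and 15.0 RPKM in KO against 8.01 and 6.96 RPKM in WT libraries, most of it Cd79b, the only one of 6 tested that was called (higher), with a median log2 fold change of 0.94 over those tested. Cd79a had 1.32 and 1.87 RPKM in KO against 0.459 and 1.11 RPKM in WT libraries, Blnk lay below 0.411 RPKM throughout, with KO higher in both genes, and Ms4a1 and Pax5 lay at or below 0.128 RPKM in every library. Myeloid, dendritic, stromal, erythroid and NK cell lists had 0 called genes of 5, 3, 5, 4 and 5 tested, and S100a8, Foxn1, Krt5 and Ncr1 were at 0 counts in all 4 libraries. The most abundant genes of these lists were Gzma, with 20.3 and 21.6 RPKM in KO against 15.3 and 11.6 RPKM in WT libraries (adjusted p = 0.0530), Pecam1, with 19.2 and 18.6 RPKM in KO against 19.7 and 21.8 RPKM in WT libraries, and Cd68, with 10.6 and 6.84 RPKM in KO against 11.3 and 7.23 RPKM in WT libraries. Immediate early genes, which respond to signalling and to tissue handling, had 5 of 21 called lower and 0 higher. Over all genes tested 7.89% were called lower and 6.63% higher. The list summed to 1696 and 2236 RPKM in KO against 2378 and 2374 RPKM in WT libraries. Nr4a1, Btg2 and Jund had the smallest adjusted p of the list, with log2 fold changes of -0.91, -0.52 and -0.49. The part of these markers in the chaperone results was not tested.

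Of the 82 genes, 74 had enough counts to be tested and 8 were called at an adjusted p under 0.05. That is 10.8% of the members tested, against 14.5% of all 16588 genes tested. Cct3, Dnaja3 and Dnajc15 were higher in KO (3 of 74, against 6.63% of all genes), and Dnaja4, Dnajb4, Dnajb6, Dnajc6 and Dnajc17 were lower (5 of 74, against 7.89%). The share called was thus not above the background in either direction, although the order of the 2 shares turned with the settings: it was 15.0% of members against 11.8% of all genes with no filter on low counts, 16.0% against 11.5% without WT replicate 1, 13.5% against 12.1% without KO replicate 1, and 16.2% against 14.9% without KO replicate 2. In 44 of 74 members (59.5%) KO and WT values were separate in RPKM, 25 with KO higher and 19 with KO lower, against 55.9% of all genes tested. The median log2 fold change was 0.02 over the members and 0.00 over all genes tested.

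The share called also depended on level. Among genes with a mean of at least 10 RPKM, 6 of 35 members (17.1%) were called, against 29.4% of 5084 genes. The median absolute log2 fold change was 0.23 over the members and 0.34 over all genes tested. At a mean of at least 1 RPKM the gap was smaller, with 0.21 over 63 members and 0.27 over 11545 genes. Together the 82 members took 0.972% and 0.977% of all counts in the KO libraries and 0.956% and 0.924% in the WT libraries.

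**Figure D1:**
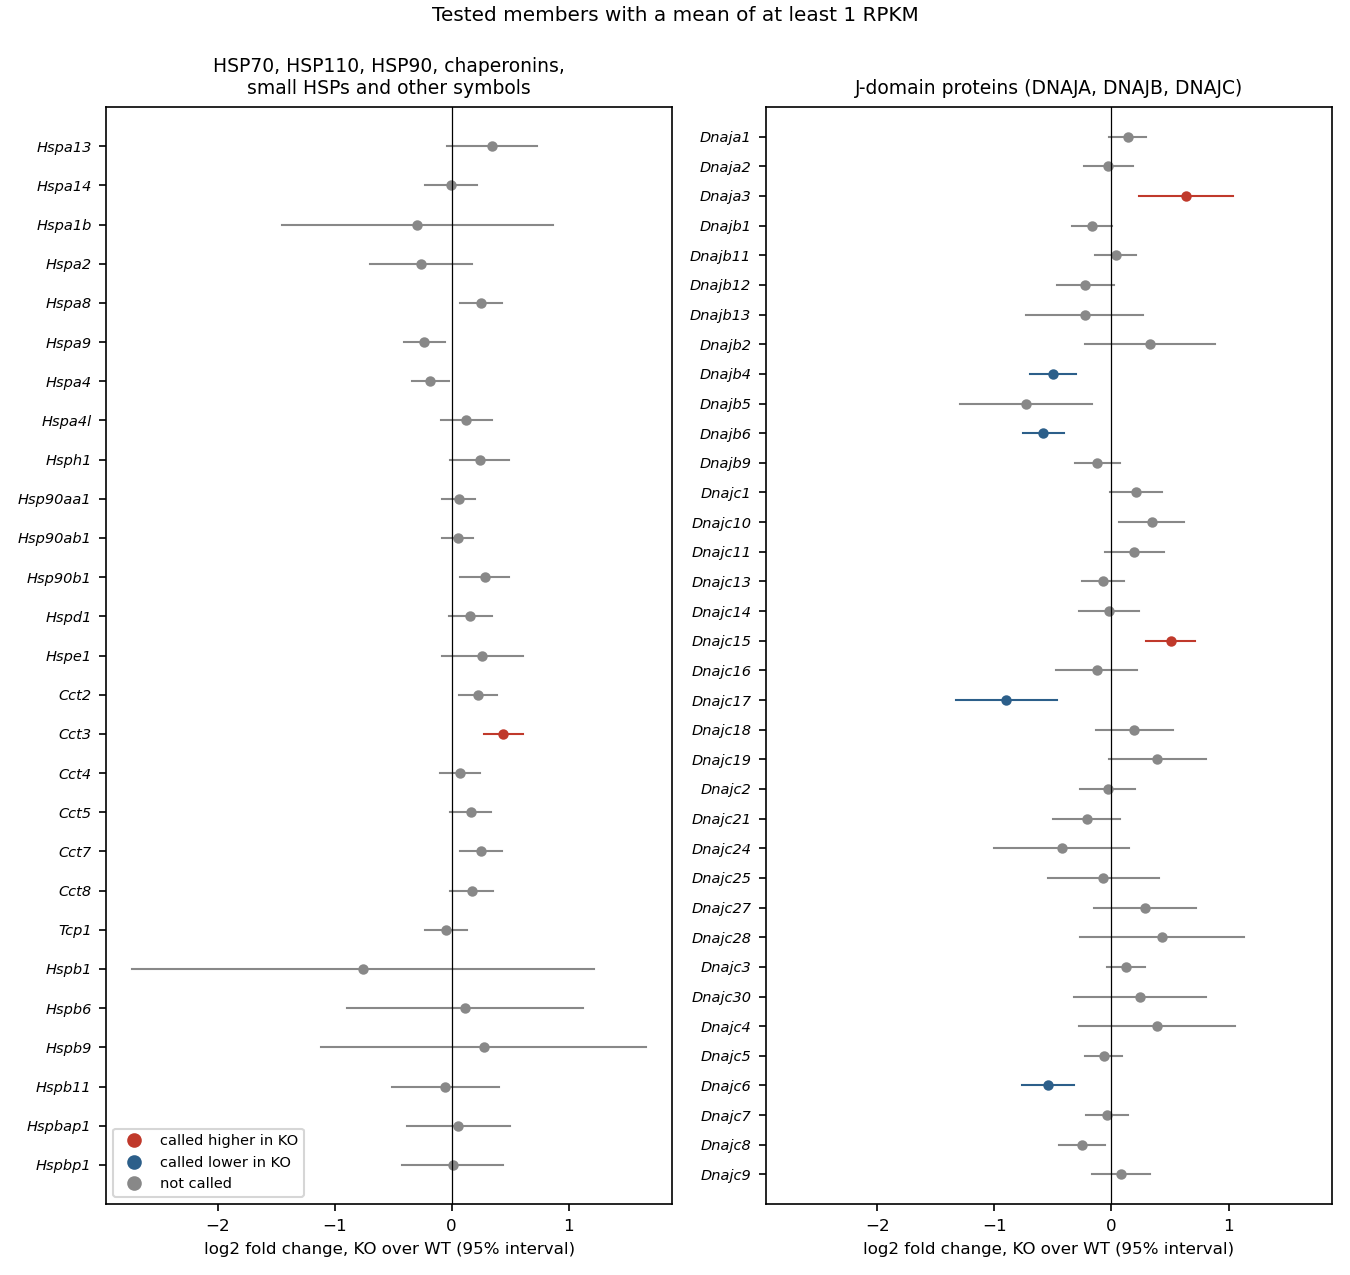
Log2 fold change, KO over WT, of each tested member with a mean of at least 1 RPKM. Points are edgeR estimates and lines their 95% intervals, with HSP70, HSP110, HSP90, chaperonins and small heat shock proteins in the left panel and J-domain proteins in the right one. Most intervals cover 0. Dnajb4, Dnajb6, Dnajc6 and Dnajc17 lie to the left of it and Cct3, Dnaja3 and Dnajc15 to the right, while Dnaja4, the remaining called member, is below 1 RPKM and not drawn.

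Among HSP70 genes 0 of 10 were called, and the leading member sat just outside the threshold. Hspa8, the constitutive cytosolic HSP70 and the most abundant of the family, had 301 and 324 RPKM in KO libraries, against 285 and 241 RPKM in WT libraries. The groups did not overlap, but the 2 WT libraries lay further apart than the lower KO library lay from the higher WT library. Its log2 fold change was 0.25 (SE 0.08, 95% interval 0.07 to 0.43, adjusted p = 0.0583), and 7 of 15 alternative settings called it higher. Without WT replicate 1 its log2 fold change was 0.38 (adjusted p = 0.00117), and without KO replicate 1 it was 0.32 (adjusted p = 0.0132). Without WT replicate 2 it was 0.14 (adjusted p = 0.476), and without KO replicate 2 it was 0.19 (adjusted p = 0.112). Of the 50-base words of its transcript, 52.7% also occur in other annotated genes, mostly processed pseudogene copies, so its count rests on how the authors placed such reads.

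Hspa9 (mortalin), the mitochondrial HSP70, lay on the other side. It had 33.7 and 31.2 RPKM in KO libraries, against 38.6 and 37.6 RPKM in WT libraries, with a log2 fold change of -0.23 (95% interval -0.41 to -0.06, adjusted p = 0.0778). Both KO libraries were below both WT libraries. Hspa14, a ribosome-associated HSP70, showed no separation, with 21.1 and 21.9 RPKM in KO libraries and 23.3 and 19.8 RPKM in WT libraries (95% interval of the log2 fold change -0.23 to 0.22). A p-value above the threshold does not show that such levels were equal. Hspa2, known from spermatogenesis, had 5.41 and 4.90 RPKM in KO libraries and 6.13 and 6.25 RPKM in WT libraries, and Hspa13, of the endoplasmic reticulum, had 4.16 and 3.71 RPKM in KO libraries and 2.95 and 3.24 RPKM in WT libraries. Neither was called.

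The stress-inducible HSP70 pair was at low counts. Hspa1a had 5 and 26 counts in KO libraries, against 40 and 31 counts in WT libraries, and Hspa1b had 106 and 170 counts in KO libraries, against 261 and 72 counts in WT libraries. For Hspa1b both KO libraries lay between the WT libraries, while for Hspa1a both lay below them. Their 95% intervals ran from -3.54 to 1.15 and from -1.45 to 0.86 on the log2 scale. The transcripts share 66.3% (Hspa1a) and 62.3% (Hspa1b) of their 50-base words with other genes, chiefly with each other, so the split of reads between them is uncertain. Hspa1l, their testis-enriched neighbour, had at most 24 counts in any library, and Hspa12a and Hspa12b, divergent relatives, had at most 76 counts. Without WT replicate 1, which held 76 counts of Hspa12b while WT replicate 2 held 2, Hspa12b was called with a log2 fold change of 4.68 (adjusted p = 0.0212), and without WT replicate 2 it was -0.51 (adjusted p = 0.795).

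The nucleotide exchange factors of the HSP110 class gave 0 calls of 3. Hspa4 had 43.3 and 41.8 RPKM in KO libraries, against 48.7 and 47.9 RPKM in WT libraries (log2 fold change -0.18, 95% interval -0.34 to -0.03, adjusted p = 0.12). Hsph1, the stress-inducible member, had 12.0 and 14.2 RPKM in KO libraries and 12.0 and 10.2 RPKM in WT libraries. Hspa4l had 3392 and 3863 counts in KO libraries and 3389 and 3182 counts in WT libraries. The groups overlapped for Hsph1 and Hspa4l and did not for Hspa4. Hspbp1, an exchange factor that the rule takes in by its symbol, had 12.8 and 10.9 RPKM in KO libraries and 9.73 and 13.8 RPKM in WT libraries, with the KO values inside the WT range.

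None of the 3 HSP90 genes was called. Hsp90ab1, the constitutive cytosolic HSP90 and the most abundant member, ranked 21 among protein-coding genes by mean RPKM and had 626 and 661 RPKM in KO libraries, against 636 and 607 RPKM in WT libraries. Hsp90aa1, the inducible cytosolic form, had 135 and 134 RPKM in KO libraries, against 127 and 131 RPKM in WT libraries. The Hsp90ab1 groups overlapped, and the Hsp90aa1 groups were separated by less than the WT libraries differed between themselves. Their log2 fold changes were 0.05 (95% interval -0.08 to 0.19) and 0.06 (95% interval -0.08 to 0.20). A change beyond 0.20 log2 units in either direction thus lay outside both intervals. Of the words of the Hsp90aa1 transcript, 58.5% also occur in other annotated genes, against 4.49% for Hsp90ab1. The Hsp90aa1 count and its interval therefore rest on how the authors placed such reads.

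Hsp90b1 (GRP94), the HSP90 of the endoplasmic reticulum, was further from 0. It had 33.8 and 31.0 RPKM in KO libraries, against 28.7 and 24.5 RPKM in WT libraries, with both KO libraries above both WT libraries. The log2 fold change of 0.28 (SE 0.10, 95% interval 0.07 to 0.49) had an adjusted p of 0.0701. It was called without WT replicate 1 (log2 fold change 0.41, adjusted p = 0.0161) and without KO replicate 2 (log2 fold change 0.34, adjusted p = 0.0155). It was 0.17 without WT replicate 2 (adjusted p = 0.431) and 0.24 without KO replicate 1 (adjusted p = 0.162). The region before its start is shown because it holds the element of the unfolded protein response of the endoplasmic reticulum, spelled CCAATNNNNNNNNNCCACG and searched on both strands, at 2 sites (capitals).
Hsp90b1 (chr10:86705527-86705662, minus strand): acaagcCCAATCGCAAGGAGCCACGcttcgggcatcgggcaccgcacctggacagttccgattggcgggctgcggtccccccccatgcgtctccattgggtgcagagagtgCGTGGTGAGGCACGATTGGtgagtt
This element stood in 2 of 67 members (2.99%, Hsp90b1 and Dnajc3), against 0.130% of all genes in the promoter table and 0.172% of protein-coding genes. Dnajc3, an HSP70 co-chaperone of the same compartment, had 52.9 and 48.7 RPKM in KO libraries and 46.7 and 46.6 RPKM in WT libraries and was not called (log2 fold change 0.12, adjusted p = 0.323).

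**Figure D2:**
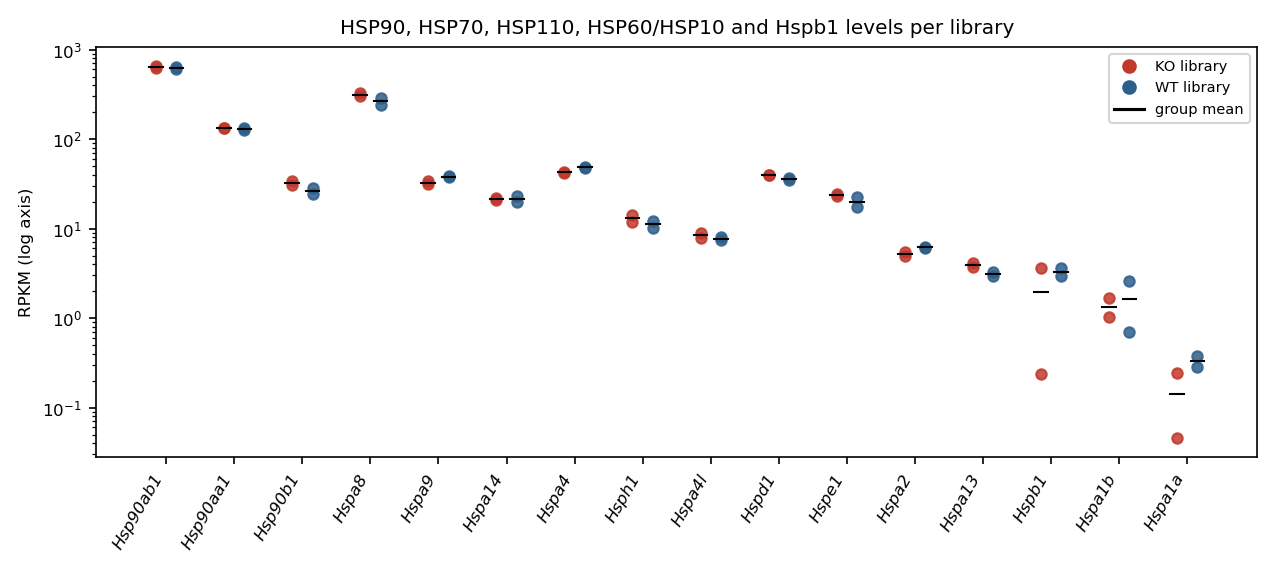
RPKM on a log axis of HSP90, HSP110 and HSP60/HSP10 genes, 7 HSP70 genes and the small heat shock gene Hspb1 in each library. Points are libraries, KO left of WT, and bars are group means. Levels span from Hsp90ab1 at the top, with 661 RPKM in a KO library, down to Hspa1a below 1 RPKM, and Hspb1, Hspa1b and Hspa1a show the widest spread between replicates among the genes drawn.

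Of 10 chaperonin genes tested, 1 was called, against 14.5% of all genes tested. Cct3, a subunit of the TRiC/CCT ring, had 33.6 and 31.5 RPKM in KO libraries, against 24.0 and 24.1 RPKM in WT libraries. The groups were clear of each other, and the WT libraries were almost equal. Cct3 rose by 0.44 log2 units (SE 0.08, adjusted p = 0.00244), and leaving out any single library kept it called (adjusted p 6.44e-05 to 0.00488).

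The other subunits of the same ring that were tested were not called, and the Cct6a subunit was not analysed here. Cct2 had 149 and 134 RPKM in KO libraries, against 122 and 119.9 RPKM in WT libraries (log2 fold change 0.22, 95% interval 0.06 to 0.39, adjusted p = 0.0648). Cct7 had 33.8 and 30.9 RPKM in KO libraries, against 25.8 and 28.6 RPKM in WT libraries (log2 fold change 0.25, 95% interval 0.07 to 0.43, adjusted p = 0.0592). Both had KO libraries above WT libraries without overlap. Cct5 had 82.9 and 74.1 RPKM in KO libraries and 68.2 and 72.1 RPKM in WT libraries, and Cct8 had 64.1 and 55.7 RPKM in KO libraries and 53.9 and 52.5 RPKM in WT libraries. Cct4 had 46.1 and 49.1 RPKM in KO libraries and 46.2 and 44.5 RPKM in WT libraries. Tcp1, the alpha subunit, stood apart in sign, with 33.2 and 29.5 RPKM in KO libraries, 31.4 and 33.4 RPKM in WT libraries and a log2 fold change of -0.05 (95% interval -0.23 to 0.13). Of the 8 tested genes of the class, 7 had a positive log2 fold change. In 6 the KO libraries were higher without overlap, against 27.8% of all genes tested, whatever their level. Both counts take in Cct6b, which had 36 and 13 counts in KO libraries, against 0 and 1 counts in WT libraries. The summed level of the class was 443 and 405 RPKM in KO libraries, against 372 and 375 RPKM in WT libraries. KO replicate 1 was the highest library for Cct2, Cct3, Cct5, Cct7 and Cct8.

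**Figure D3:**
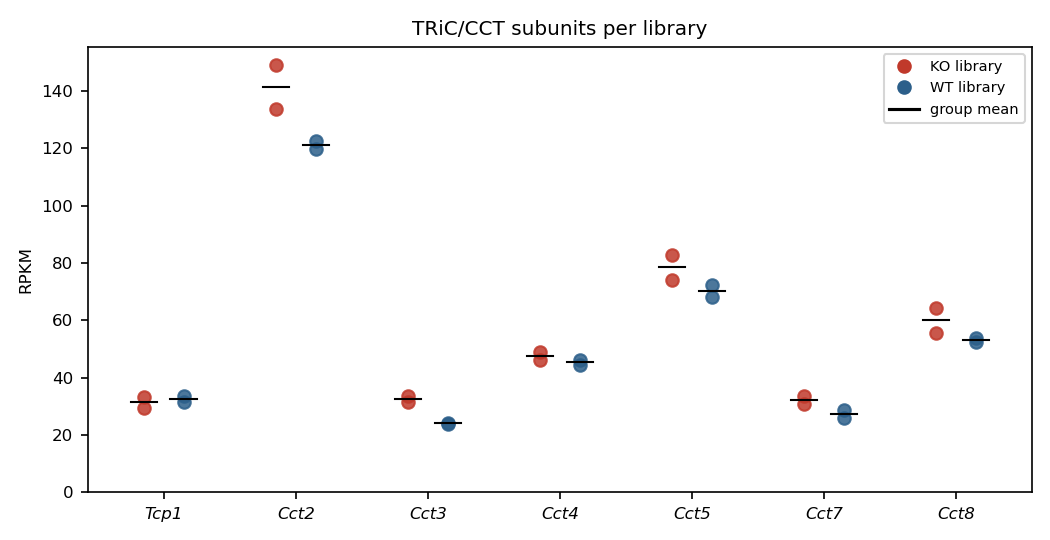
RPKM of 7 TRiC/CCT subunit genes in each library, KO left of WT. Points are libraries and bars group means; Cct3 is the only subunit called, and the Tcp1 and Cct4 groups overlap.

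Cct6b, a subunit form known from testis, is the remaining tested gene of the class. It had 36 and 13 counts in KO libraries, against 0 and 1 counts in WT libraries, and was not called (adjusted p = 0.0965). The mitochondrial chaperonin pair gave 0 calls of 2. Hspd1 (HSP60) had 39.9 and 40.2 RPKM in KO libraries, against 35.1 and 36.7 RPKM in WT libraries, and its cofactor Hspe1 (HSP10) had 24.5 and 23.0 RPKM in KO libraries, against 22.3 and 17.4 RPKM in WT libraries. Neither gene's groups overlapped, with KO higher in both, and the 95% intervals of their log2 fold changes reached from -0.03 to 0.34 and from -0.09 to 0.61. These genes share the 18-base element shown above, and 44.8% of the words of Hspd1 occur in other annotated genes, mostly its pseudogenes.

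Small heat shock proteins, which hold unfolding proteins without ATP, were scarcely expressed. Only 3 of 7 could be tested and 0 were called. Hspb1 (HSP27 in human) had 140 and 9 counts in KO libraries, against 110 and 136 counts in WT libraries. KO replicate 1 lay above both WT libraries and KO replicate 2 far below them. Without KO replicate 1 its log2 fold change was -3.74 (adjusted p = 0.00099), against -0.76 (95% interval -2.73 to 1.22) with all libraries and 0.15 without KO replicate 2. Hspb6 and Hspb9 had 134 and 176, and 89 and 38 counts in KO libraries, against 77 and 208, and 53 and 50 counts in WT libraries. Of those not tested, Hspb8 had 2 and 21 counts in KO libraries and 3 and 6 counts in WT libraries, Hspb3 had 12 counts in WT replicate 1 alone, Hspb7 had 6 counts in WT replicate 2 alone, and Hspb2 had 0 counts throughout. Hspb11, a part of the intraflagellar transport complex that bears the family's symbol, and Hspbap1, which binds HSPB1, were not called, with log2 fold changes of -0.05 and 0.06.

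J-domain proteins made up 45 of the 82 genes and 7 of the 8 calls. Of 42 tested, 2 were higher (4.76%, against 6.63% of all genes) and 5 lower in KO (11.9%, against 7.89%), so 16.7% were called, near the 14.5% of all genes. Their summed level was 743 and 744 RPKM in KO libraries, against 794 and 787 RPKM in WT libraries. The DNAJB class alone was at 284 and 302 RPKM in KO libraries, against 333 and 335 RPKM in WT libraries.

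In the DNAJA class, built like bacterial DnaJ, the abundant cytosolic members were not called and the scarcer ones moved in opposite directions. Dnaja1 had 50.4 and 53.6 RPKM in KO libraries, against 48.4 and 46.2 RPKM in WT libraries (adjusted p = 0.243), and Dnaja2 had 49.5 and 43.8 RPKM in KO libraries, against 51.4 and 43.9 RPKM in WT libraries (adjusted p = 0.909). Dnaja3 (Tid1), a mitochondrial co-chaperone of Hspa9, had 6.12 and 6.31 RPKM in KO libraries, against 4.41 and 3.58 RPKM in WT libraries. The WT libraries were further apart than the KO libraries, but all of WT lay below KO. Dnaja3 rose by 0.64 log2 units (SE 0.19, adjusted p = 0.0376), a call that was lost without WT replicate 2 (adjusted p = 0.180), KO replicate 1 (adjusted p = 0.0586) or KO replicate 2 (adjusted p = 0.0861).

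Dnaja4 had the lowest log2 fold change of the called members. It had 0.188 and 0.467 RPKM in KO libraries (25 and 61 counts), against 1.29 and 1.52 RPKM in WT libraries (166 and 199 counts). Both KO libraries were well below both WT libraries, and the KO libraries differed from each other by more than the WT libraries did. Dnaja4 fell by 2.09 log2 units (SE 0.51, adjusted p = 0.0166), with an adjusted p of 0.0506 without KO replicate 1. Of its exonic bases, 44.1% overlap Wdr61 on the opposite strand, and the sources used here do not give the strand setting of the counting, so reads of the pair may not be told apart. Wdr61 itself had 888 and 698 counts in KO libraries and 894 and 698 counts in WT libraries. The bases before the RefSeq start of Dnaja4 hold 2 short heat shock elements, shown above. The window shown lies inside an untranslated exon of a GENCODE transcript of the gene.

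The DNAJB class, whose members prevent aggregation and pass substrates to HSP70, had mostly negative log2 fold changes. Of 13 tested, 2 were called lower and 0 higher, against 7.89% and 6.63% of all genes tested. A negative log2 fold change was found in 11, where the median over all genes tested was 0.00. In 6 the KO libraries were lower without overlap, against 28.1% of all genes tested. Dnajb6, which keeps polyglutamine and amyloid proteins from aggregating, had 25.2 and 22.7 RPKM in KO libraries, against 35.8 and 36.0 RPKM in WT libraries. The groups were far apart and the WT libraries nearly equal. Dnajb6 fell by 0.58 log2 units (SE 0.08, adjusted p = 0.000515), the smallest adjusted p among the members, and stayed called without any single library (adjusted p at most 4.68e-05). Of its 50-base words 42.8% are shared with 10 other annotated genes, so a part of its count depends on how those reads were placed. Its promoter is the one of the 3 with a complete heat shock element that belongs to a called gene.

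Dnajb4, a cytosolic relative of Dnajb1, had 8.57 and 8.13 RPKM in KO libraries, against 12.0 and 11.6 RPKM in WT libraries. Replicates agreed closely and the groups were clear of each other. Dnajb4 fell by 0.50 log2 units (SE 0.09, adjusted p = 0.00293) and stayed called without any single library (adjusted p at most 0.0100). Dnajb1 (HSP40), the main stress-inducible J-domain protein and the most abundant of the class, had 112 and 126 RPKM in KO libraries, against 131 and 137 RPKM in WT libraries. Its KO libraries were both lower, but the log2 fold change of -0.17 (95% interval -0.34 to 0.00) was not called (adjusted p = 0.191), except without KO replicate 2 (adjusted p = 0.0245). Dnajb5 had 1.14 and 1.44 RPKM in KO libraries, against 1.85 and 2.45 RPKM in WT libraries (log2 fold change -0.73, adjusted p = 0.0833).

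The members of the class in the endoplasmic reticulum were not called. Dnajb9 (ERdj4) had 74.3 and 79.9 RPKM in KO libraries and 89.7 and 78.2 RPKM in WT libraries, and Dnajb11 (ERdj3) had 36.7 and 35.6 RPKM in KO libraries and 34.5 and 36.0 RPKM in WT libraries. Groups overlapped in both. Dnajb12, in the membrane of that compartment, had 17.1 and 15.1 RPKM in KO libraries and 17.8 and 19.8 RPKM in WT libraries, and Dnajb14, its relative, lay below 1 RPKM throughout. Dnajb2, a co-chaperone that directs clients to the proteasome, was the only member of the class with KO above WT without overlap, at 2.22 and 2.98 RPKM in KO libraries and 1.98 and 2.18 RPKM in WT libraries (adjusted p = 0.471). Dnajb3, Dnajb7 and Dnajb8 had at most 53 counts in any library, and Dnajb13 had 4.88 and 7.53 RPKM in KO libraries and 6.48 and 8.10 RPKM in WT libraries.

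**Figure D4:**
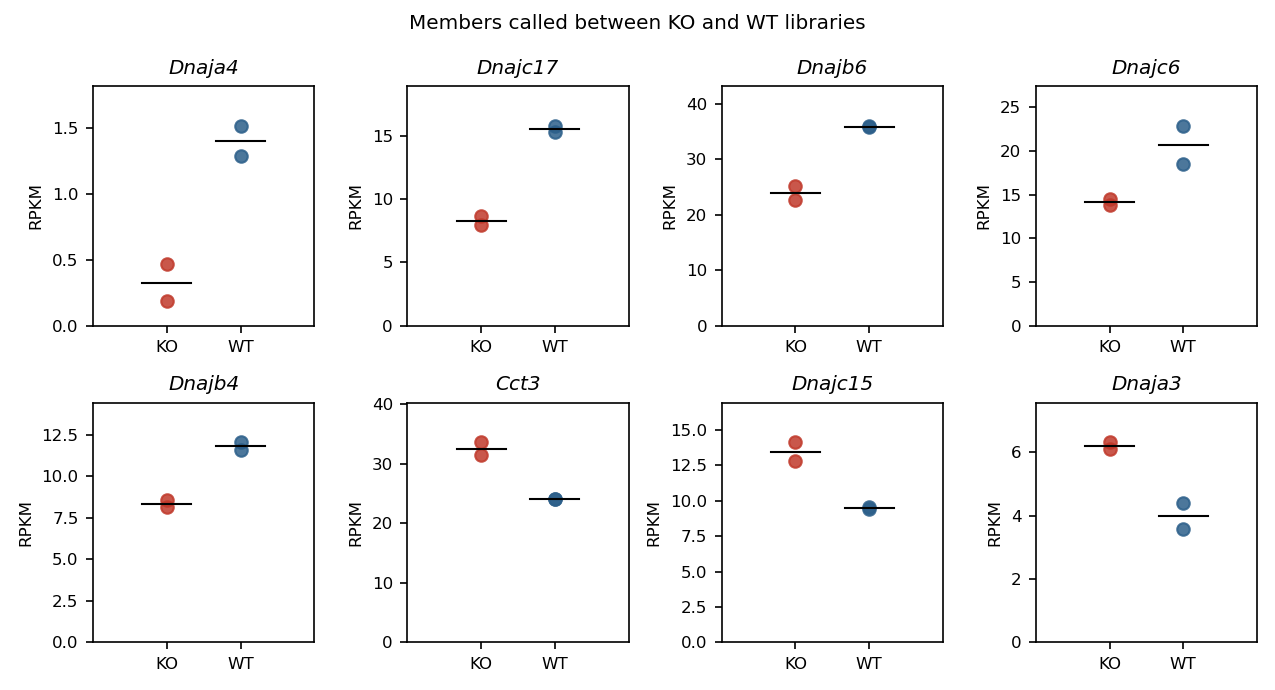
RPKM of the 8 called members in each library, 1 panel per gene with its own axis from 0, KO left of WT. Points are libraries and bars group means. In every panel the groups are separate, and Dnaja4 is at the lowest level, below 2 RPKM.

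The DNAJC class joins proteins that share only the J domain. It held 3 calls among 25 tested of 28, against 14.5% called of all genes tested. Dnajc15 (MCJ), an inner membrane protein of mitochondria that restrains the respiratory chain and has been studied in CD8 T cells, had 14.1 and 12.8 RPKM in KO libraries, against 9.39 and 9.57 RPKM in WT libraries. KO libraries were higher without overlap. Dnajc15 rose by 0.51 log2 units (SE 0.10, adjusted p = 0.00428) and stayed called without any single library (adjusted p at most 0.00958).

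Dnajc17, a J-domain protein with an RNA recognition motif, had the largest decrease among members above 5 RPKM. It had 7.95 and 8.66 RPKM in KO libraries, against 15.8 and 15.3 RPKM in WT libraries. The replicates were close and the groups far apart. Dnajc17 fell by 0.90 log2 units (SE 0.20, adjusted p = 0.00944) and stayed called without any single library (adjusted p at most 0.0304). Of its words, 25.4% are shared with other genes, and 8.26% of its exonic bases overlap Zfyve19 on the opposite strand.

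Dnajc6 (auxilin), which recruits Hspa8 to strip clathrin from vesicles and is best known from neurons, had 14.5 and 13.8 RPKM in KO libraries, against 18.5 and 22.8 RPKM in WT libraries. The WT libraries were more spread than the KO libraries, without overlap. Dnajc6 fell by 0.54 log2 units (SE 0.10, adjusted p = 0.00386) and stayed called without any single library (adjusted p at most 0.0294). None of its 50-base words is shared with another gene.

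The other members of the class are given by their sites of action. Of those tied to splicing and ribosomes, Dnajc8, a spliceosome-associated protein, had 40.1 and 36.7 RPKM in KO libraries, against 43.1 and 48.4 RPKM in WT libraries (log2 fold change -0.25, 95% interval -0.45 to -0.06, adjusted p = 0.0855). Dnajc2, of the ribosome-associated complex, and Dnajc21, a ribosome assembly factor, had log2 fold changes of -0.03 and -0.21 and were not called. Dnajc7, which links HSP70 and HSP90, had 34.9 and 36.3 RPKM in KO libraries and 38.3 and 35.1 RPKM in WT libraries. Dnajc9, a histone chaperone, had 31.2 and 26.7 RPKM in KO libraries and 29.2 and 25.4 RPKM in WT libraries. Neither was called, and the groups overlapped in both.

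On vesicles and endosomes, Dnajc5 (cysteine string protein) had 48.9 and 46.2 RPKM in KO libraries and 48.0 and 51.7 RPKM in WT libraries, and Dnajc13 (RME-8) had 8.80 and 8.47 RPKM in KO libraries and 9.04 and 9.13 RPKM in WT libraries. Within mitochondria, Dnajc19, of the inner membrane import motor, had 4.43 and 4.91 RPKM in KO libraries, against 3.46 and 3.67 RPKM in WT libraries (log2 fold change 0.39, adjusted p = 0.212), and Dnajc11, of the cristae complex, had a log2 fold change of 0.20 (adjusted p = 0.308). In the endoplasmic reticulum, the disulfide reductase Dnajc10 (ERdj5) had 9.75 and 11.1 RPKM in KO libraries, against 7.67 and 8.82 RPKM in WT libraries (log2 fold change 0.34, 95% interval 0.06 to 0.62, adjusted p = 0.103). Its KO libraries were both higher. Dnajc1 (ERdj1) had 6.24 and 6.46 RPKM in KO libraries and 5.77 and 5.22 RPKM in WT libraries and was not called.

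The uncalled remainder were Dnajc4, Dnajc12, Dnajc14, Dnajc16, Dnajc18, Dnajc24 (an enzyme of diphthamide synthesis), Dnajc25, Dnajc27, Dnajc28 and Dnajc30. The lowest log2 fold change among them was -0.43 (Dnajc24) and the highest 0.43 (Dnajc28). The 3 that could not be tested were Dnajc5b with 0 counts, Dnajc5g with 1 count in WT replicate 2, and Dnajc22 with 1 count in each of KO replicate 1 and WT replicate 2. The last gene that could not be tested, the chaperonin-like Cct8l1, had 0 and 1 counts in KO libraries and 0 and 4 counts in WT libraries. Genes at 0 counts were not detectable at this depth, which does not show that they are silent.

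The factors that control the members were read from the same libraries. Hsf1 had 13.7 and 12.8 RPKM in KO libraries, against 13.0 and 11.9 RPKM in WT libraries, with a log2 fold change of 0.09 (95% interval -0.11 to 0.29, adjusted p = 0.613). Its groups overlapped, and 0 of 6 tested heat shock factors and their binding proteins were called. Hsbp1, the most abundant of the 6, had 28.4 and 30.1 RPKM in KO libraries, against 21.2 and 24.1 RPKM in WT libraries. Its log2 fold change was 0.37 (95% interval 0.11 to 0.63, adjusted p = 0.0604). Hsf2 lay the other way, with 4.90 and 4.83 RPKM in KO libraries, against 5.71 and 5.51 RPKM in WT libraries. Hsbp1 and Hsf2 were named after their values were seen. A list of 25 tested genes known to be induced by HSF1, of which 16 are members, had 3 higher and 1 lower. Over all genes tested, 6.63% were called higher and 7.89% lower. The median log2 fold change of the list was 0.05. The 3 higher genes, Chordc1, Ahsa1 and Stip1, are HSP90 co-chaperones and not members, and the lower gene is Dnajb4. Calls in this list thus went in both directions, and 0 of its HSP70, HSP90 or chaperonin genes was among them.

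The co-chaperones of HSP90 had the most calls in a single direction among the partner lists. Of 21 tested, 6 were called higher and 0 lower, with a median log2 fold change of 0.26. The share called higher was 28.6%, against 6.63% of all genes. Among genes with a mean of at least 10 RPKM it was 6 of 17 (35.3%), against 15.2% of all genes at that level. The list was chosen with earlier results of these data known, so these shares are a description and not a test of the list. Stip1 (HOP), which hands clients from HSP70 to HSP90, had 85.3 and 100.2 RPKM in KO libraries, against 67.7 and 58.7 RPKM in WT libraries. It rose by 0.56 log2 units (SE 0.10, adjusted p = 0.0031). Chordc1 (CHP-1), an HSP90-binding protein, had 15.3 and 16.0 RPKM in KO libraries, against 9.97 and 8.78 RPKM in WT libraries. It rose by 0.74 log2 units (SE 0.10, adjusted p = 0.000367).

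Ahsa1 (AHA1), which speeds the ATPase of HSP90, had 14.8 and 14.3 RPKM in KO libraries, against 10.1 and 10.2 RPKM in WT libraries. It rose by 0.52 log2 units (SE 0.11, adjusted p = 0.00639). In all 3 the KO libraries lay above the WT libraries, while Hsp90ab1 and Hsp90aa1 showed the small intervals given above. The other 3 genes called were Ptges3 (p23), Fkbp5 and Ppp5c, at 0.43, 0.29 and 0.29 log2 units, named after their values were seen. Without 1 library the number called higher lay between 4 and 7. Cdc37, which brings kinases to HSP90, had 41.6 and 40.4 RPKM in KO libraries and 37.1 and 33.1 RPKM in WT libraries and was not called (adjusted p = 0.0746).

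**Figure D5:**
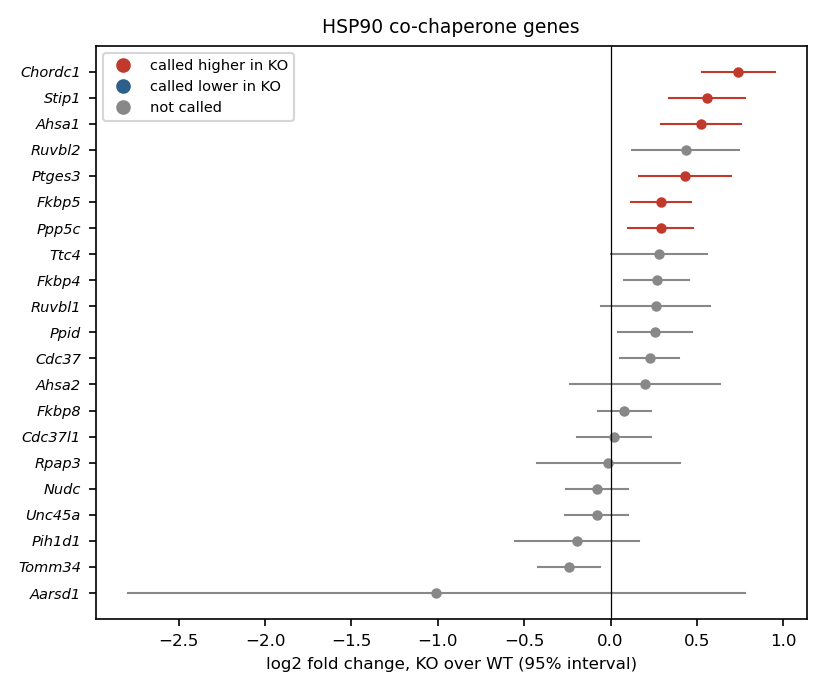
Log2 fold change, KO over WT, of the 21 tested HSP90 co-chaperone genes, with 95% intervals, ordered from the highest to the lowest estimate. The 6 called genes all lie right of 0, from Chordc1 at 0.74 to Ppp5c and Fkbp5 at 0.29.

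The partners of the other machines had mixed calls. Over all genes tested 14.5% were called, and 29.4% of those with a mean of at least 10 RPKM. These lists were not tested as sets. Of 14 co-chaperones of HSP70, Stub1 (CHIP), a ubiquitin ligase for chaperone clients, and Sgta, which guards membrane proteins in the cytosol, were higher, at 0.54 and 0.34 log2 units, and Bag5, an exchange factor, fell by 0.34 log2 units. Of 12 tested prefoldin subunits and TRiC/CCT cofactors, Pdrg1 and Pfdn6 were higher, at 0.50 and 0.43 log2 units, and Pdcl fell by 0.34 log2 units. Of 7 tubulin folding cofactors, which take tubulin over from TRiC/CCT, Tbcc fell by 0.67 log2 units. Of 9 mitochondrial quality control genes, Yme1l1, a protease, and Trap1, the mitochondrial HSP90 whose symbol the rule does not take, were higher, at 0.50 and 0.37 log2 units. Of 15 other genes of protein folding in the endoplasmic reticulum, Canx and Pdia3 were higher, at 0.30 and 0.26 log2 units, and Ero1lb fell by 0.82 log2 units.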

How the data were processed

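RNA sequencing of 2 KO and 2 WT libraries of sorted thymocytes was analysed, with groups taken from the genotype labels. The authors deposited a gene count table per library and 1 table of RPKM values with gene lengths. The submitters' processing notes list STAR 2.6.0a, HTSeq 0.6.1, cutadapt 1.17, FastQC 0.11.5 and DESeq2 1.24.0, with GRCm38 (mm10) as genome build. No source used here states the strand setting or the annotation release. Each deposited RPKM value equals the count divided by gene length and library total, within a relative tolerance of 1e-06.

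Deposited counts were tested with edgeR 4.0.16 (R 4.3.3; quasi-likelihood, robust, TMM, filterByExpr), with genotype as the only term. Two-sided p-values received Benjamini-Hochberg adjustment across the 16588 genes tested, with calls at an adjusted p under 0.05. Intervals use the standard error derived from the F statistic. The fit was checked on simulated counts. RPKM was used for levels only. Members and gene lists were chosen with earlier results of these data known. The rule for names was every called member and the most abundant members of each class. From each list it took the called genes with the smallest adjusted p. Other members were named to account for the whole set, after their values were seen.

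Overlaps come from GENCODE release 21 for mouse (GRCm38), and transcripts were compared by shared words of 50 bases. Alternatives were other scaling factors and filters, DESeq2 1.42.0, limma 3.58.1 (voom, and log2 of RPKM plus 0.5 or 0.1), a replicate block and leaving out each library. A count was worth 0.0270 to 0.0279 CPM. Replicate pairs differed beyond sampling noise (chi-square over degrees of freedom 19.9 for KO and 17.5 for WT, 64.0 to 78.3 between groups). Figures were drawn with matplotlib 3.10.9 in Python 3.11.15.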

Additional observations from a re-analysis of the deposited data

How the results depend on the processing

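Over 15 alternatives, the 8 called members kept their direction in all 119 values and stayed called in 97. A sign change of an uncalled member was not counted as a reversal, and 43 values of 21 uncalled members changed sign. The number of members called higher was 3. It became 7 with no filter on low counts, 7 with a filter of mean 1 CPM (19.4% of members called in either direction, against 22.5% of all genes), 6 with DESeq2 (16.4% against 21.1%) and 7 with limma-voom (17.6% against 17.9%). Without 1 library it lay between 3 and 6 (6 without WT replicate 1, 5 without KO replicate 1, 6 without KO replicate 2). With limma on log2(RPKM + 0.5), which fits 25133 genes, 0 members were called higher and 0 lower, 0 HSP90 co-chaperones higher, and 0 genes in all were called higher and 0 lower. With log2(RPKM + 0.1) these were 0, 0, 0, 22 and 60. With log2(RPKM + 0.5) and a mean RPKM of at least 1, 3 members were called lower, 3 HSP90 co-chaperones higher, and 538 genes in all higher and 662 lower. With the 1 CPM filter 1 HSP90 co-chaperone was called lower. Other scaling factors left 3 members higher and 5 lower.

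With the replicate number as a block, 5 members were called higher and 6 lower. The numbers were not taken to pair the libraries, since deviations of same-numbered libraries had a correlation of -0.04 over all genes and only 2 pairs exist, although it was 0.45 over the members. Under the block Hspa8 (adjusted p = 0.00722) and Hsp90b1 (adjusted p = 0.0338) were called higher, and 14.9% of members were called, against 16.9% of all genes. With 2 libraries per group, precision differed widely between genes: the 95% interval ran from -0.08 to 0.19 log2 units for Hsp90ab1 and from -3.54 to 1.15 for Hspa1a.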
